A study of Mus musculus with 20 samples.

Results

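The smooth muscle contractile genes described here are 9 of the 33495 genes in the counts table: Acta2, Tagln, Cnn1, Myh11, Smtn, Mylk, Myocd, Cald1 and Lmod1. They were chosen by name, as the classical contractile genes of smooth muscle together with the cofactor that drives them, and each symbol matched 1 gene of the table. All 9 passed the filter on low counts in every comparison. RNA-seq was performed on 20 libraries of C57BL/6 mouse embryonic heart in which floxed Kmt2d, the gene of an H3K4 methyltransferase, was deleted by 1 of 3 Cre lines. Mesp1Cre acts in early cardiac mesoderm, and its whole hearts were taken at E9.0 (4 mutants and 4 controls). Tnnt2::Cre acts in cardiomyocytes, and its whole hearts were taken at E11.5 (3 mutants and 3 controls). Mef2cAHF::Cre acts in the anterior heart field, and its right ventricles with outflow tracts were taken at E11.5 (3 libraries labelled mutant and 3 labelled control). Mutants were Cre; Kmt2d fl/fl; mTmG/+ and controls were Cre; Kmt2d fl/+; mTmG/+, so that every control also carried the Cre, 1 floxed Kmt2d allele at the least, and the Cre reporter. The protocol text of the labels gives E11.5 for all hearts, while the age given for each Mesp1Cre library is E9.0, which was followed.

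Contraction of smooth muscle starts when a rise in calcium leads to activation of myosin light chain kinase, which phosphorylates the light chain of smooth muscle myosin so that it can pull on actin filaments. Calponin, caldesmon and transgelin sit on those filaments, and smoothelin and leiomodin belong to the same contractile apparatus. Most genes of this set are switched on by serum response factor (SRF), which binds a DNA element called the CArG box, together with its cofactor myocardin. In the embryo many of these genes are not restricted to smooth muscle. The early heart tube expresses Acta2, Tagln, Cnn1, Smtn and Myocd in cardiomyocytes before smooth muscle has formed around the vessels, and several of them decline in the myocardium as it matures.

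The promoters of 3 members are shown because the results turn on them: Acta2 was the most abundant member, Cnn1 was the member that changed with the Mesp1Cre deletion, and Lmod1 had the largest difference between stages. Each line gives the 150 bases before the start of transcription in RefSeq (build GRCm38.p6), 5′ to 3′ on the strand of the gene. In mm9, the build of the counts table, the same letters lie at chr19:34329864-34330013 on the minus strand for Acta2, at chr9:21903547-21903696 on the plus strand for Cnn1 and at chr1:137221240-137221389 on the plus strand for Lmod1. Capitals mark CArG-like elements, which are CArG boxes with 1 C or G among the 6 inner bases.
Acta2: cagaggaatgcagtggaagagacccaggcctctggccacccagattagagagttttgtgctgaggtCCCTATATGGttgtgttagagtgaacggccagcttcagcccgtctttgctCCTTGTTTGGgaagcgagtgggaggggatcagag
Cnn1: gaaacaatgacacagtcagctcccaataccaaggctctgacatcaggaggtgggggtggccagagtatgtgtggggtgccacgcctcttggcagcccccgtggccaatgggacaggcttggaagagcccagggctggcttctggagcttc
Lmod1: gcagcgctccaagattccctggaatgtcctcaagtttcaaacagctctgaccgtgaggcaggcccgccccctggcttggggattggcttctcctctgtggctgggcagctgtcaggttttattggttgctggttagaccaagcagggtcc

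The RefSeq table held windows of 300 bases around the start for 6 members, 7 windows in all since Cald1 had 2 starts. A CArG box of the strict form was in 0 of the 7 windows and in 1.63% of all 32817 windows. The CArG-like element, an alternative chosen after the strict search, was in 1 of the 7 windows and in 8.5% of all windows. That window was the promoter of Acta2, which held 2 such elements, at positions -84 to -75 and -34 to -25 counted from the first transcribed base in RefSeq. The counts table begins this gene at chr19:34329810 in mm9, downstream of the RefSeq start, so that the positions depend on the start chosen. Both forms read the same on either strand, and a match is a description of these letters only. Tagln, Myh11 and Myocd had no window in the table.

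The counts summed to between 21727258 and 45341870 reads per library, and 0 pairs of libraries held identical counts. Levels of 1 gene are given as CPM (counts scaled to a common library total) after 1 TMM scaling of all libraries, and levels of different genes are compared by the deposited FPKM, which divides by gene length. By the summed CPM of their markers, all libraries were heart: 14 cardiomyocyte genes summed to between 28657 and 68088 CPM and none was at 0 in any group. The 11 markers of vascular mural cells (smooth muscle and pericytes), which include no member, summed to between 205 and 641 CPM, also with none at 0 in any group. In whole tissue, fewer cells of a type and less RNA per cell cannot be told apart. Kmt2d, listed under its older symbol Mll2, checks the labels. It averaged 133 CPM ± 7.14 (SD, n = 4) in Mesp1Cre mutants against 156 ± 5.52 (n = 4) in controls, and 118 ± 4.28 (n = 3) in Tnnt2::Cre mutants against 149.8 ± 20.8 (n = 3) in controls. Neither difference passed the test (adjusted p = 0.0764 and 0.327), although the groups did not overlap in either line. In Mef2cAHF::Cre it went the other way, with 185 ± 3.72 (n = 3) in the libraries labelled mutant and 149 ± 5.72 (n = 3) in those labelled control (log2 fold change 0.32 ± 0.06 SE, adjusted p = 0.0359). The second header line of the counts table also names these 6 libraries by the opposite genotype. The sample titles were followed, and the reading by column names is given beside each result of this line.

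Acta2, the actin of smooth muscle thin filaments, exceeded every other member by length-normalized level in all 20 libraries. It ranged from 589.6 to 2062 FPKM, and only 0.0776% of the genes in the table had a higher mean FPKM. Tagln (transgelin, which bundles actin filaments) ranged from 37.0 to 164 FPKM, Cnn1 (calponin 1, an inhibitor of actomyosin) from 30.0 to 78.5 FPKM and Myocd (myocardin) from 19.2 to 69.1 FPKM. These were followed by Cald1 (caldesmon, which binds actin and tropomyosin) at 13.6 to 46.0 FPKM and Smtn (smoothelin) at 8.16 to 12.9 FPKM. The lowest levels were those of Myh11, the heavy chain of smooth muscle myosin and the member most restricted to smooth muscle, at 0.350 to 4.96 FPKM, of Mylk, the light chain kinase, at 0.849 to 2.07 FPKM, and of Lmod1, which nucleates actin filaments, at 0.210 to 5.73 FPKM.

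**Figure D1:**
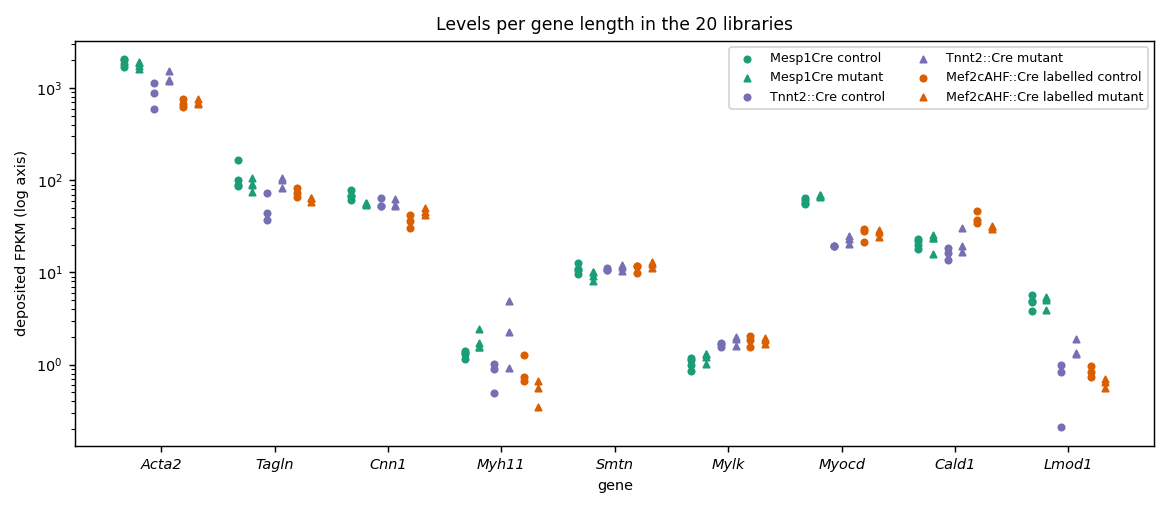
Deposited FPKM (log axis) of the 9 genes in the 20 libraries, 1 point per library, with circles for controls and triangles for mutants of each Cre line. Acta2 sits between 589.6 and 2062 FPKM in every library, above all other genes, while Myh11, Mylk and Lmod1 stay at or below 5.73 FPKM.

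In Mesp1Cre control hearts at E9.0, the order by mean FPKM was Acta2 (1899.7 ± 160.5), Tagln (109.5 ± 36.5), Cnn1 (68.6 ± 7.06), Myocd (59.7 ± 3.88), Cald1, Smtn, Lmod1, Myh11 and Mylk (SD, n = 4). The neighbours Cnn1 and Myocd overlapped in range, as did Myh11 and Mylk, and the other neighbours did not. In Tnnt2::Cre control hearts at E11.5, Cnn1 (56.4 ± 6.54) and Tagln (51.2 ± 18.5) overlapped below Acta2 (869 ± 269), Myocd had 19.4 ± 0.123, and Mylk stood above Myh11 and Lmod1, which overlapped (n = 3). In the Mef2cAHF::Cre libraries labelled control, Cald1 stood next and overlapped with Cnn1, below Acta2 (683 ± 66.3) and Tagln (74.1 ± 7.73). The fourth to seventh places of the libraries labelled mutant were Cald1, Myocd, Smtn and Mylk, with no overlap between these neighbours.

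The other alpha actins and the enteric actin are close relatives of Acta2. Actc1, the cardiac actin, had between 4359 and 10499 FPKM and was above Acta2 in all libraries, Acta1, the skeletal actin, had 34.9 to 227 FPKM, and Actg2, the enteric smooth muscle actin, had 0.383 to 6.67 FPKM. Of the 1732 distinct stretches of 50 bases in the Acta2 transcript, 7 (0.404%) were also in a transcript of another protein-coding gene, all of them in Actg1. Myh11 shared 26 of its 6583 stretches (0.395%) with Myh9, and for the other members the share was at most 0.0197%. Reads with mismatches could still be split between actins. By exons, Smtn overlapped lincRNA genes on the opposite strand over 714 and 39 of its 4380 exonic bases, and Tagln overlapped Pcsk7 on the opposite strand over 65 of 1586 bases. Whether the counting used strand is not given in the sources used here, so that these reads cannot be assigned to a strand.

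**Figure D2:**
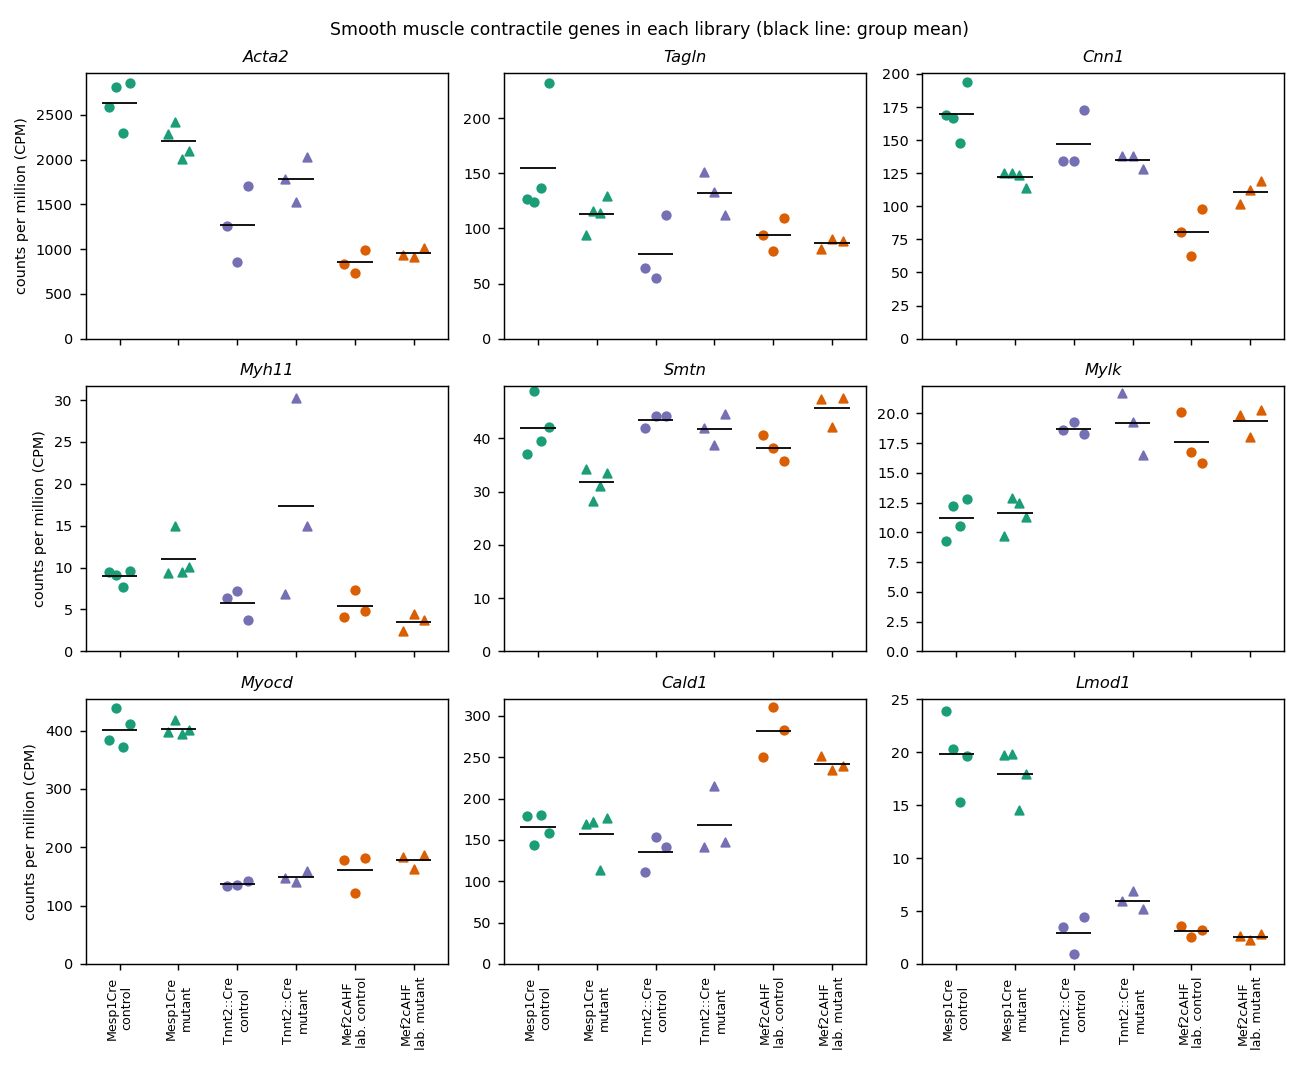
CPM of each gene in each library, 1 point per library, grouped by Cre line and genotype (lab. marks the sample titles of Mef2cAHF::Cre), with a black line at the group mean and axes from 0. Myocd and Lmod1 are highest in the Mesp1Cre hearts at E9.0, Cald1 is highest in the Mef2cAHF::Cre libraries, and Myh11 has its highest value, 30.3 CPM, in 1 Tnnt2::Cre mutant.

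Mesp1Cre mutants and controls were compared to ask whether loss of Kmt2d in cardiac mesoderm altered these genes. Cnn1 fell in the mutants, and 1 of the 9 members passed the test (adjusted p below 0.05 over all genes), as a lower level. Of the 15883 genes tested, 5.29% passed as lower and 6.17% as higher, 1821 genes in all. Cnn1 had 169, 167, 148 and 194 CPM in the controls and 125, 125, 124 and 114 CPM in the mutants. All mutants lay below all controls (log2 fold change -0.46 ± 0.09 SE, adjusted p = 0.00481, edgeR quasi-likelihood test). Leaving out each library in turn kept its change between -0.52 and -0.39.

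Smtn and Acta2 were also lower on average but did not pass. Smtn had 37.1, 48.8, 39.5 and 42.1 CPM in controls and 34.3, 28.3, 31.0 and 33.5 CPM in mutants, without overlap between the groups (-0.38 ± 0.12, adjusted p = 0.0533). Acta2 had 2587, 2807, 2298 and 2859 CPM in controls and 2289, 2418, 2005 and 2102 CPM in mutants, with overlap (-0.24 ± 0.08, adjusted p = 0.076). Both of them passed in the DESeq2 Wald test (adjusted p = 0.0187 and 0.0381). Over all alternative settings that kept every library, Smtn ran from -0.40 to -0.20 and Acta2 from -0.26 to -0.08. The adjusted p of the tests in those settings reached 0.248 for Smtn and 0.609 for Acta2. For Tagln the controls had 127, 124, 137 and 232 CPM and the mutants 94.1, 116, 114 and 129.8 CPM. The value of 232 stood apart, and without that control the log2 difference went from -0.43 (adjusted p = 0.136) to -0.18 (adjusted p = 0.365).

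The remaining members did not pass either, and their groups overlapped. The log2 fold changes were 0.31 ± 0.19 for Myh11, 0.07 ± 0.17 for Mylk, 0.02 ± 0.07 for Myocd, -0.05 ± 0.13 for Cald1 and -0.12 ± 0.15 for Lmod1 (adjusted p between 0.333 and 0.867). Myocd was at 401 CPM ± 30.1 (SD, n = 4) in controls and 403 ± 10.7 (n = 4) in mutants. The median log2 fold change of the 9 members was -0.12, and that of all genes tested was 0.0. At an unadjusted p below 0.05 there were 4 members, Acta2, Tagln, Cnn1 and Smtn, against 26.9% of all genes. By 4 Y-linked genes, all 4 mutants and 2 of the 4 controls were male, and the part of this in the result was not tested. The 11 endothelial markers summed to 855 to 972 CPM in mutants and 611 to 724 CPM in controls. The 14 cardiomyocyte markers summed to 55653 to 68088 against 44719 to 57507 CPM. Taken singly, 2 of these 14 passed as higher and 2 as lower, against 6.17% and 5.29% of all genes. Their median log2 fold change was -0.03. The mural markers summed to 205 to 305 against 235 to 297 CPM. Of 7 mural markers tested singly, 1 passed as higher and 1 as lower, against the same shares of all genes. The erythroid markers summed to 1931 to 7525 against 5454 to 18032 CPM. The part of these cell types was not tested either. With the hemoglobin and mitochondrial genes left out before scaling, the change of Cnn1 was also -0.46.

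The other genes of the pathway were read from 4 lists compiled by hand. Each list is to be set beside all genes tested, of which 6.17% passed as higher and 5.29% as lower. Of 25 other smooth muscle contractile and cytoskeletal genes tested, 3 rose and 4 fell. The largest rise among them was that of Fbxo32 (59.9 CPM ± 16.8 in controls and 94.6 ± 21.8 in mutants, log2 fold change 0.68). Fbxo32 is a muscle ubiquitin ligase subunit rather than a contractile protein, and was placed in this list by hand. The largest fall was that of Lmod2, the cardiac leiomodin (52.2 ± 11.4 and 25.9 ± 6.58, log2 fold change -0.99). Among 15 regulators of light chain phosphatase, RhoA and cGMP kinase, 1 rose, Prkg1, the cGMP-dependent kinase, from 75.7 ± 10.7 to 120 ± 8.92 CPM. Of 24 genes of SRF, its cofactors and regulators of Myocd, 2 rose, with the largest change in Notch3, a Notch receptor of mural cells (25.7 ± 8.91 to 49.4 ± 9.80 CPM), and 0 fell. Of 14 CArG-dependent genes of general cell type, 1 rose (Actg1, cytoplasmic actin) and 1 fell (Tpm3, a tropomyosin).

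Tnnt2::Cre mutants and controls were compared to ask the same of deletion in cardiomyocytes. No member passed the test, and 0.293% of the 17045 genes tested did. At an unadjusted p below 0.05 there were 3 members, Tagln, Myh11 and Lmod1, all higher in mutants, against 11.9% of all genes, and the DESeq2 Wald test called 1 member, Tagln. Tagln had 64.4, 54.6 and 112 CPM in controls and 151, 133 and 112 CPM in mutants, where the highest control stood just below the lowest mutant (log2 fold change 0.79 ± 0.24, adjusted p = 0.269).

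Myh11 had 6.37, 7.21 and 3.71 CPM in controls and 6.83, 30.3 and 15.0 CPM in mutants. The mutants themselves spread over more than the difference between the groups, and 1 mutant lay within the range of the controls (1.59 ± 0.48, adjusted p = 0.265). Without the mutant at 30.3 CPM the difference was 0.91 (adjusted p = 0.448), and without the mutant at 6.83 CPM it was 1.98 (adjusted p = 0.00914). Lmod1 had 3.50, 0.898 and 4.42 CPM in controls and 5.92, 6.87 and 5.16 CPM in mutants, without overlap (1.03 ± 0.45, adjusted p = 0.413). Its lowest value rested on 31 reads. Acta2 had 1263, 851 and 1706 CPM in controls and 1789, 1527 and 2031 CPM in mutants, with overlap (0.49 ± 0.23, adjusted p = 0.455).

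Cald1 (0.32 ± 0.18), Myocd (0.12 ± 0.09), Mylk (0.03 ± 0.13), Smtn (-0.05 ± 0.09) and Cnn1 (-0.12 ± 0.12) had adjusted p between 0.541 and 0.948. The median log2 fold change of the members was 0.32, and that of all genes 0.0. In the 4 lists 0 genes passed the test, against 0.293% of all genes. The erythroid markers summed to 103643 to 159872 CPM in controls and to 19176 to 131799 CPM in mutants, and the mural markers to 291 to 347 against 218 to 302 CPM. Taken singly, 2 of 9 mural markers tested passed, both as lower, against 0.293% of all genes. The median log2 fold change of the mural markers was -0.02. Of 11 erythroid markers 0 passed. The part of these cell types was not tested. With hemoglobin and mitochondrial genes left out before scaling, the differences of Myh11 and Tagln were also 1.59 and 0.79. Leaving genes out changes the scaling only and not the cells in each library.

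In Mef2cAHF::Cre, 0 of the 9 members passed when libraries titled mutant were set against those titled control, and 2.85% of the 16920 genes tested did. At an unadjusted p below 0.05 there were 3 members, Cnn1, Smtn and Cald1, against 17.9% of all genes, and the DESeq2 Wald test called 1 member, Cnn1 (adjusted p = 0.0212). Cnn1 had 80.9, 62.5 and 98.0 CPM in the libraries labelled control and 102, 112 and 119 CPM in those labelled mutant. The groups did not overlap (0.46 ± 0.14 by the titles, adjusted p = 0.125), and the column names make this a lower level in mutants. Without the third library labelled control, at 98.0 CPM, Cnn1 passed (0.63, adjusted p = 0.0412).

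Smtn also did not overlap, with 40.6, 38.1 and 35.8 CPM in the libraries labelled control and 47.4, 42.1 and 47.5 CPM in those labelled mutant (0.26 ± 0.08, adjusted p = 0.125). Cald1 had 250.4, 311 and 283 CPM in the libraries labelled control and 251, 235 and 239 CPM in those labelled mutant, with overlap (-0.22 ± 0.09, adjusted p = 0.228). For Myh11 the values were 4.12, 7.38 and 4.80 CPM against 2.38, 4.51 and 3.71 CPM (-0.62 ± 0.28, adjusted p = 0.292). The other members had log2 differences between -0.27 (Lmod1) and 0.17 (Acta2) and adjusted p between 0.481 and 0.655. The median of the members was 0.14 and that of all genes -0.01, and the sign of every one of these differences turns under the column names.

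Each list is to be set beside all genes tested, of which 2.85% passed. Among the lists, 2 of 26 other contractile and cytoskeletal genes were higher in the libraries labelled mutant. The largest difference was in Des, the muscle intermediate filament desmin (93.1 CPM ± 16.5 labelled control and 177 ± 7.42 labelled mutant, log2 difference 0.93). Of 15 regulators of phosphatase, RhoA and cGMP kinase, 1 was lower, the cGMP phosphodiesterase Pde5a (20.1 ± 5.42 and 10.6 ± 0.244 CPM). In the other lists 0 genes passed. The column names turn the direction of each difference in this paragraph. Markers of other cell types were also summed. Those of neural crest (7 of 9 in the table) summed to 131 to 134 CPM in the libraries labelled mutant and 93.5 to 112 CPM in those labelled control. The 10 epicardial markers summed to 249.9 to 256 against 272 to 353 CPM, and neither sum overlapped. Taken singly, 1 of 6 neural crest markers tested passed, as higher, and 1 of 10 epicardial markers, as lower, against 2.85% of all genes. Their median log2 differences were 0.12 and -0.39. The cardiomyocyte markers summed to 35821 to 41816 against 28657 to 36924 CPM, the mural markers to 469 to 641 against 462 to 641 CPM and the erythroid markers to 24956 to 47103 against 7241 to 32118 CPM, with overlap in each. None of these markers was at 0 in either group, and their part in the differences was not tested.

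**Figure D3:**
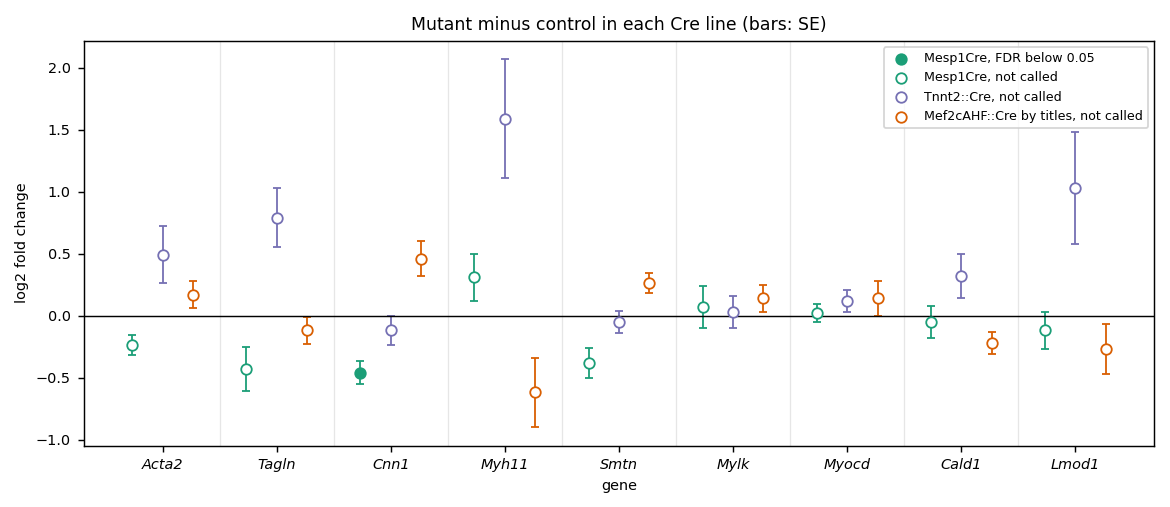
Log2 fold change of each gene, mutant minus control, in the 3 Cre lines (Mef2cAHF::Cre by the sample titles), with bars for the standard error, filled points for adjusted p below 0.05 and open points otherwise. Only the Mesp1Cre point of Cnn1 at -0.46 is filled, and the Tnnt2::Cre points of Myh11, Lmod1 and Tagln lie highest, at 1.59, 1.03 and 0.79.

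The effects of the lines were then tested against each other in 1 fit of the 6 groups. Any 2 lines also differ in stage, tissue or both, and in the code of the column names. A difference between their effects cannot be told apart from these or from any batch that goes with them. Between Mesp1Cre and Tnnt2::Cre, Tagln differed (-1.23 ± 0.31, adjusted p = 0.0363), so that 1 of 9 members passed against 3.04% of 18391 genes. The call was lost when any 1 of 8 libraries was left out (adjusted p up to 0.119), with a difference of -0.97 without the Mesp1Cre control that stood apart. Between Mef2cAHF::Cre by titles and Tnnt2::Cre, Myh11 differed (-2.21 ± 0.55, adjusted p = 0.0304), 1 of 9 members against 3.19% of genes, and the call was lost when any 1 of 6 libraries was left out, with -1.54 (adjusted p = 0.108) without the Tnnt2::Cre mutant at 30.3 CPM. By the column names 0 members and 0.0% of genes passed in edgeR, 1 member (Acta2) had an unadjusted p below 0.05 against 2.57% of genes, and DESeq2 called 0 members and 6 genes.

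Between Mesp1Cre and Mef2cAHF::Cre by titles, Cnn1 (-0.94 ± 0.17, adjusted p = 0.00151) and Smtn (-0.66 ± 0.14, adjusted p = 0.00383) differed, which is 2 of 9 members against 11.3% of genes. Both held without any 1 of the 20 libraries. By the column names the difference was -0.01 ± 0.17 for Cnn1 and -0.14 ± 0.14 for Smtn, and 0 members passed in edgeR, against 1.63% of genes. DESeq2 called 0 members, and 0 had an unadjusted p below 0.05 in edgeR. Whether Cnn1 moved in 1 direction or in opposite directions in these lines therefore rests on which labels of Mef2cAHF::Cre hold.

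Control whole hearts at E11.5 (Tnnt2::Cre) were compared with those at E9.0 (Mesp1Cre) to describe the members by stage. The stages also differ in Cre line and in the code that the column names carry. These, and any batch that goes with them, cannot be told apart from age. Of the 9 members 7 passed: 6 were lower at E11.5, against 18.8% of the 16697 genes tested, and 1 was higher, against 19.6%, with 38.3% called in all. The median log2 difference of the members was -0.66 and that of all genes -0.01. Lmod1, Myocd, Acta2 and Tagln were lower by more than 1 on the log2 scale, and Mylk was higher.

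Lmod1 had 23.9, 20.3, 15.3 and 19.6 CPM at E9.0 and 3.50, 0.898 and 4.42 CPM at E11.5, far apart (-2.78 ± 0.39, adjusted p = 0.000246). Myocd had 383, 439, 372 and 412 CPM at E9.0 and 134, 135 and 142 CPM at E11.5 (-1.58 ± 0.08, adjusted p = 4.33e-07). The spread of Myocd within each stage was small beside the difference. Acta2 had at least 2298 CPM at E9.0 and at most 1706 CPM at E11.5 (-1.08 ± 0.19, adjusted p = 0.000924). Tagln had at least 124 CPM at E9.0 and at most 112 CPM at E11.5 (-1.05 ± 0.26, adjusted p = 0.00824), a gap between the groups that is narrow beside their ranges. Mylk had 9.30, 12.2, 10.5 and 12.8 CPM at E9.0 and 18.6, 19.3 and 18.3 CPM at E11.5 (0.71 ± 0.14, adjusted p = 0.00226).

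Myh11 and Cald1 passed by little. Myh11 had 9.45, 9.15, 7.68 and 9.59 CPM at E9.0 and 6.37, 7.21 and 3.71 CPM at E11.5 (-0.66 ± 0.23, adjusted p = 0.0418). Cald1 had 179, 144, 180 and 159 CPM at E9.0 and 111, 154 and 141 CPM at E11.5, with overlap (-0.32 ± 0.12, adjusted p = 0.0499). Both calls were lost in the fit of 6 groups (adjusted p = 0.174 and 0.146) and without several single libraries, where adjusted p rose to 0.136 for Myh11 (without the Tnnt2::Cre control at 3.71 CPM) and to 0.258 for Cald1 (without the one at 111 CPM). The call of Cald1 was also lost with hemoglobin and mitochondrial genes left out (adjusted p = 0.062). Cnn1 (-0.24 ± 0.11, adjusted p = 0.117) and Smtn (0.02 ± 0.11, adjusted p = 0.914) did not pass, and without the third Tnnt2::Cre control Cnn1 did (-0.36, adjusted p = 0.0226).

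Among the actins, Acta1 was also lower at E11.5 (301 CPM ± 60.9, n = 4, against 135 ± 26.9, n = 3, adjusted p = 0.000305), while Actc1 had 14595 ± 1883 and 12952 ± 2651 CPM and did not pass (adjusted p = 0.305). The cardiomyocyte markers summed to 44719 to 57507 CPM at E9.0 and 34214 to 44821 CPM at E11.5, the mural markers to 235 to 297 and 291 to 347 CPM, the epicardial markers to 56.5 to 110.1 and 268 to 325 CPM, and the erythroid markers to 5454 to 18032 and 103643 to 159872 CPM. Taken singly, 5 of the 14 cardiomyocyte markers were higher at E11.5 and 4 lower, against 19.6% and 18.8% of all genes. Their median log2 difference was -0.07. The part of these cell types in the differences was not tested. With hemoglobin and mitochondrial genes left out, Lmod1, Myocd, Acta2, Tagln and Mylk had -2.76, -1.56, -1.07, -1.03 and 0.73.

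Each list is to be set beside all genes tested, of which 18.8% were lower at E11.5 and 19.6% higher. Of 26 other contractile and cytoskeletal genes, 12 were lower and 4 higher at E11.5. Nexn, a filament-binding protein of the Z-disc, was lowest against E9.0 (385 CPM ± 50.6 to 141 ± 18.9), and Itga8, an integrin of mesenchymal and smooth muscle cells, was highest (3.24 ± 2.05 to 15.2 ± 3.66). The regulators of phosphatase, RhoA and cGMP kinase were split, with 4 of 16 higher and 4 lower. Prkg1 had the largest fall (75.7 ± 10.7 to 24.0 ± 2.69 CPM) and Mrvi1, a substrate of that kinase, the largest rise (14.4 ± 4.77 to 24.2 ± 1.77 CPM). Of 24 genes of SRF, its cofactors and regulators of Myocd, 8 were lower and 3 higher, with the largest fall in Mef2c, a muscle transcription factor (128 ± 5.81 to 52.4 ± 2.04 CPM), and the largest rise in Heyl, a Notch target (1.71 ± 0.977 to 8.72 ± 1.51 CPM). Of 14 CArG-dependent genes of general cell type, 6 were lower, led by Fhl1, and 2 were higher, led by Zyx.

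Right ventricle with outflow tract was compared with whole heart at E11.5 in control libraries. The tissues came from Cre lines with different codes in the column names. Line, code and any batch that goes with them cannot be told apart from the tissue. The whole hearts are the same 3 Tnnt2::Cre controls as in the comparison of stages. By the titles, 2 members passed: Cald1 was higher, against 18.6% of 17042 genes, and Cnn1 was lower, against 21.2%, with 39.8% called in all. By the column names, 3 members passed: Cald1 and Myocd were higher, against 17.3% of 17271 genes, and Cnn1 was lower, against 21.3%, with 38.6% called in all. Cald1 and Cnn1 thus kept their directions under both readings.

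Cald1 had 111, 154 and 141 CPM in whole heart, 250.4, 311 and 283 CPM in the libraries labelled control and 251, 235 and 239 CPM in those labelled mutant. Both readings placed every right ventricle and outflow library above every whole heart (1.06 ± 0.13, adjusted p = 0.000327 by titles, and 0.84 ± 0.11, adjusted p = 0.000195 by column names). Cnn1 had 134, 134 and 173 CPM in whole heart, above the values of the labelled control (-0.86 ± 0.16, adjusted p = 0.00263) and of the labelled mutant libraries (-0.40 ± 0.10, adjusted p = 0.0114). The second call was lost without the first library labelled mutant (adjusted p = 0.0511). Myocd had 134, 135 and 142 CPM in whole heart, 179, 122 and 181 CPM in the labelled control libraries (0.24 ± 0.14, adjusted p = 0.201) and 183, 163 and 187 CPM in those labelled mutant (0.38 ± 0.07, adjusted p = 0.0025).

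Acta2 was at -0.57 ± 0.22 (adjusted p = 0.0663) by the titles and -0.41 ± 0.19 (adjusted p = 0.116) by the column names. Without the second Tnnt2::Cre control, which had 851 CPM, it passed in both readings (-0.80 and -0.64, adjusted p = 0.0104 and 0.00304). Myh11 was at -0.08 ± 0.28 (adjusted p = 0.844) and -0.70 ± 0.28 (adjusted p = 0.0653). Under the column names, deviations of same-numbered libraries correlated at 0.14, 0.21 and 0.24. These libraries come from different Cre lines, and their replicate number names no unit known to be shared. A fit with that number as a block called 5 members, with Acta2 (-0.36, adjusted p = 0.0478) and Myh11 (-0.68, adjusted p = 0.031) added. Tagln passed without the third Tnnt2::Cre control (0.67 and 0.54, adjusted p = 0.0122 and 0.00127) and not with it (0.30 and 0.18, adjusted p = 0.325 and 0.524). Smtn, Mylk and Lmod1 had log2 differences between -0.19 and 0.09, with adjusted p of at least 0.132.

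The related actins of striated muscle were both lower in right ventricle and outflow tract by the titles (Actc1 7500 CPM ± 1136 against 12952 ± 2651, adjusted p = 0.013, and Acta1 59.9 ± 20.7 against 135 ± 26.9, adjusted p = 0.00309). By the column names both were also lower (Actc1 log2 difference -0.63, adjusted p = 0.00512, and Acta1 -0.89, adjusted p = 0.000347). The mural markers summed to 462 to 641 CPM in the 6 right ventricle and outflow libraries and 291 to 347 CPM in whole heart, and the markers of cushion mesenchyme and fibroblasts to 4828 to 5471 against 2511 to 2731 CPM. The cardiomyocyte markers summed to 28657 to 41816 against 34214 to 44821 CPM, with overlap. Taken singly, 8 of the 14 were lower and 2 higher by the titles, with a median log2 difference of -0.72. By the column names 8 were lower and 3 higher, with a median of -0.45. Of all genes, 21.2% and 21.3% were lower under these readings. The erythroid markers summed to 7241 to 47103 against 103643 to 159872 CPM. What part these have in the differences was not tested.

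**Figure D4:**
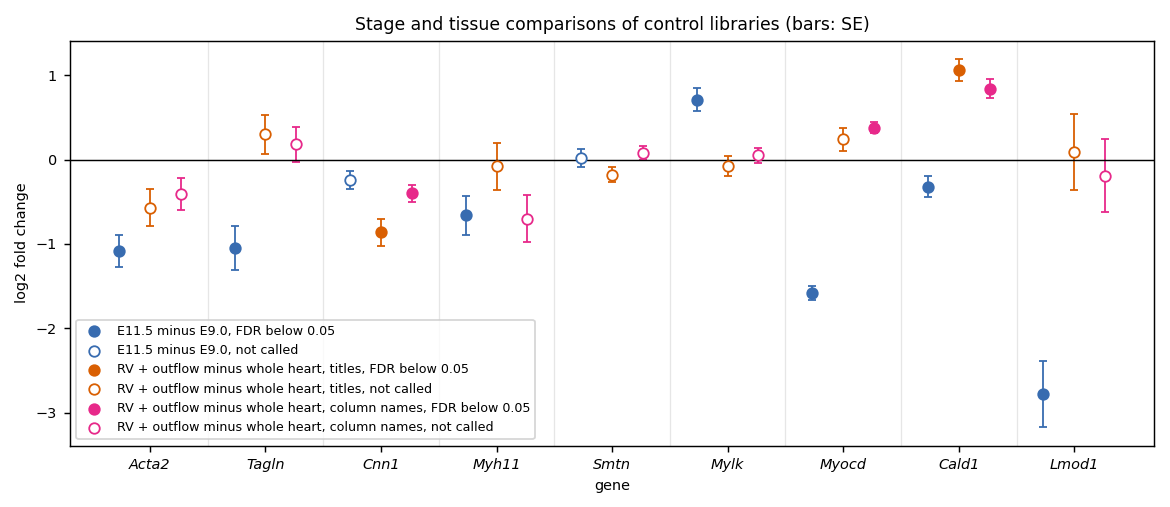
Log2 difference of each gene between control libraries, for E11.5 minus E9.0 whole heart and for right ventricle (RV) with outflow tract minus whole heart under both readings of Mef2cAHF::Cre, with bars for the standard error, filled points for adjusted p below 0.05 and open points otherwise. Lmod1 (-2.78) and Myocd (-1.58) lie lowest for stage, and Cald1 lies highest for tissue at 1.06 and 0.84.

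Each list is to be set beside all genes tested. Of these, 18.6% were higher and 21.2% lower by the titles, and 17.3% and 21.3% by the column names. Of 26 other contractile and cytoskeletal genes, 11 were higher and 6 lower in right ventricle and outflow tract by the titles. By the column names 12 were higher and 3 lower. Under both readings Filip1l, a filamin-binding protein gene, was the highest (34.8 CPM ± 2.35 in whole heart, 96.9 ± 10.5 and 93.3 ± 9.50 in right ventricle and outflow). Fbxo32, the ubiquitin ligase subunit placed in this list by hand, was the lowest (28.6 ± 1.70, 11.6 ± 1.06 and 13.8 ± 1.40). The regulators of phosphatase, RhoA and cGMP kinase had 6 of 16 higher and 2 lower by the titles (led by Prkg1 and Ppp1cb), and 5 and 5 by the column names (led by Rock1 and Mrvi1). Among 24 genes of SRF, its cofactors and regulators of Myocd, 12 were higher and 4 lower by the titles, and 10 and 4 by the column names. Crip2, which was placed in this list by hand, was the lowest under both (357 ± 65.6 in whole heart, 139 ± 17.0 and 181 ± 9.45). Notch3 (21.0 ± 2.28 to 47.6 ± 8.04) was the highest by the titles and Heyl (8.72 ± 1.51 to 17.1 ± 5.76) by the column names. Of 14 CArG-dependent genes of general cell type, 3 were higher and 1 lower by the titles (led by Ctgf and Mcl1), and 1 and 5 by the column names (led by Vcl and Zyx).

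Over the 20 libraries the members did not move as 1 block. These correlations of log2 CPM describe libraries that share stage, tissue and line. Acta2, Myocd and Lmod1 went together (Pearson r = 0.77 for Acta2 with Myocd, 0.91 for Acta2 with Lmod1 and 0.89 for Myocd with Lmod1). Mylk went against them (r = -0.88 with Myocd, -0.84 with Lmod1 and -0.73 with Acta2), and Cald1 went against Cnn1 (r = -0.68). Among the 12311 genes whose log2 CPM averaged 1 or more, the pattern most like that of Acta2 was that of Acta1 (r = 0.966), followed by Fkbp1a (0.957). For Myocd these were Prtg (0.982) and Ank3 (0.981), for Lmod1 Cnn2 (0.969) and Ly75 (0.956), for Mylk Zbtb8a (0.954) and Trim47 (0.937), and for Cnn1 Hspb2 (0.910) and Sh3bgr (0.908). The closest matches were looser for Cald1 (Gpc2, 0.899, and Itga9, 0.883), Smtn (Aqp4, 0.886, and Gpr22, 0.878), Myh11 (Fos, 0.850, and 1500012F01Rik, 0.832) and Tagln (Parl, 0.841, and Eif1a, 0.838).

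By position in mm9 no member neighbours another, although Tagln and Cnn1 are both on chromosome 9, Smtn and Myocd on chromosome 11 and Myh11 and Mylk on chromosome 16. Acta2 (ENSMUSG00000035783) spans chr19:34316014-34329810 on the minus strand and has 1 annotated transcript. Cnn1 (ENSMUSG00000001349) spans chr9:21903725-21914074 on the plus strand with 1 transcript, and Myocd (ENSMUSG00000020542) spans chr11:64990063-65083482 on the minus strand with 7. Lmod1 (ENSMUSG00000048096) lies at chr1:137221384-137264642 on the plus strand. Cald1 (ENSMUSG00000029761) has 17 annotated transcripts and Mylk (ENSMUSG00000022836) has 4, which include short and long protein forms, and the counts do not separate them.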

How the data were processed

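RNA-seq of 20 libraries was used. The authors aligned reads to mm9 (TopHat2 2.0.8b and mm9 are named in the submitters' processing notes), counted them per gene with featureCounts and deposited these raw counts without normalization. The annotation version and the strand setting are not given in the sources used here. The labels name NuGEN Ovation kits with linear SPIA amplification, which the paper does not. The deposited FPKM, computed with USeq 8.6.4, was each count divided by gene length and library total. The table's 20 columns of variance-corrected values were not used. The mutants and controls of each line share a code in the column names, and those names do not say what it marks.

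Libraries were grouped by their titles. The groups were compared with edgeR 4.0.16 in R 4.3.3: filterByExpr, TMM, the quasi-likelihood F test and Benjamini-Hochberg adjustment over all genes tested, with 0.05 as the threshold. The standard error is the log2 fold change divided by the square root of F. Differences between lines were contrasts in 1 fit of 6 groups, with 5 such contrasts. log2 CPM used a prior count of 2. Beside the members, the text names for each list and comparison the gene with the largest rise and the largest fall past the threshold whose log2 CPM averaged 1 or more, the relatives of Acta2 and, for each member, the 2 genes with the most similar pattern. The result of 1 gene that this rule names is not reported here. Promoters came from RefSeq (GRCm38.p6), overlaps and transcripts from GENCODE M1 on mm9. The members and lists were chosen with earlier results of these data known. The fits were tested on simulated data with known changes.

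Replicate numbers are shared between groups. In Mesp1Cre, same-numbered libraries carry the same litter code in the labels. The first and second replicates of each Mesp1Cre group also share a code, so that its libraries are not all of different litters. The test reported for that line did not use these codes. Correlations of the deviations of same-numbered libraries from the group means were -0.07 to 0.13 in that line. Of the other comparisons, every pair was over 0.1 only for tissue by the column names (0.14, 0.21 and 0.24). The labels do not say whether a library is 1 embryo, so that p-values measure the spread between libraries. The settings varied were the size factors (those of DESeq2 1.42.0 in edgeR), the test (DESeq2 Wald), all genes with at least 1 count, the 6-group fit, limma-trend (limma 3.58.1) on log2(FPKM + 0.1) and log2(FPKM + 1), 8 hemoglobin and 38 mitochondrial genes left out before scaling, a replicate or litter block, and each library left out. Leaving libraries out of the contrasts between lines, and the CArG-like element, were added after seeing the data.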

Additional observations from a re-analysis of the deposited data

Results flagged for a closer look

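In the 2 Mesp1Cre groups of 4 libraries, 1 library stood far from the other three in 4 of 18 gene and group combinations, where chance gives about 1 in 20. Tagln was highest in control replicate 4 (232 CPM), Cnn1 lowest in mutant replicate 4 (114 CPM, beside 124 to 125 CPM), Myh11 highest in mutant replicate 2 (15.0 CPM), and Cald1 lowest in mutant replicate 3 (114 CPM).

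The effect of the deletion differed between lines by the contrast of the 6-group fit in 4 cases. Line cannot be told apart from stage, tissue and column code in these contrasts. For Tagln the Mesp1Cre effect minus the Tnnt2::Cre effect was -1.23 on the log2 scale. For Myh11 the Mef2cAHF::Cre effect by titles minus the Tnnt2::Cre effect was -2.21. The Mesp1Cre effect minus the Mef2cAHF::Cre effect by titles was -0.94 for Cnn1 and -0.66 for Smtn, and under the column names 0 of these last 3 passed.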

How the results depend on the processing

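Of the members' calls, Cnn1 in Mesp1Cre, Lmod1, Myocd, Acta2, Tagln and Mylk by stage, Cald1 by tissue under both readings, Cnn1 by tissue under the titles, Myocd by tissue under the column names, and Cnn1 and Smtn between Mesp1Cre and Mef2cAHF::Cre by titles kept their direction and passed under every alternative run. By stage, Cald1 no longer passed in 11 of 15 alternatives and Myh11 in 8. The cause of the changes given here was not tested. In Mesp1Cre, 2 members passed in the 6-group fit (3593 genes) and 3 in DESeq2. In Mef2cAHF::Cre, 1 member passed in DESeq2 (1103 genes) and 1 without the filter (1311 genes), while 129 genes passed in the 6-group fit, 291 and 253 on FPKM plus 0.1 and plus 1. In Tnnt2::Cre, 1 member passed in DESeq2 (368 genes), and 82 genes passed in the 6-group fit, 120 without the filter, 22 and 19 on FPKM plus 0.1 and plus 1. For tissue by the column names, 5 members passed without the filter, and 3937 genes in the 6-group fit. Between lines, DESeq2 called 2 members and 1242 genes for Mesp1Cre minus Tnnt2::Cre, 2 and 1035 for Mef2cAHF::Cre by titles minus Tnnt2::Cre (6 genes by column names) and 779 genes for Mesp1Cre minus Mef2cAHF::Cre by column names.

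On FPKM plus 0.1 and plus 1, the median of all genes moved to 0.15 and 0.11 in Mesp1Cre, 0.11 and 0.08 in Tnnt2::Cre, 0.22 and 0.14 for tissue by titles, and -0.13 and -0.10 in Mef2cAHF::Cre, and the share of calls that were lower went from 46.2% to 15.0% in Mesp1Cre, from 36.5% to 61.9% in Mef2cAHF::Cre, from 53.3% to 29.7% for tissue by titles and from 55.1% to 42.7% by column names with plus 0.1. In the Tnnt2::Cre line that share was 74.0%, and 54.1% in DESeq2. Members that did not pass as reported changed sign there: Cald1 (0.09 and 0.09) and Lmod1 (0.04 and 0.04) in Mesp1Cre, Smtn in Tnnt2::Cre (0.06 and 0.06) and by stage (-0.02 and -0.01), Myh11 (0.14 and 0.07), Smtn (0.05 and 0.04) and Mylk (0.13 and 0.09) for tissue by titles, and Lmod1 (0.11, plus 0.1) by column names.

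With the replicate number as a block, 5 members passed for tissue by the column names, and 28 genes in Tnnt2::Cre. For tissue and stage the libraries are of different lines, and that number names no unit known to be shared. In Mesp1Cre, where same-numbered libraries share a litter code, the replicate block gave 1 member and 1384 genes and the litter block 1 member and 1482 genes. For tissue by titles the block called 3 members, Acta2 being added, and by stage 6, Cald1 being lost. It changed no other call of a member.

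With each library left out in turn, between 1 and 2 members and 1052 and 2161 genes passed in Mesp1Cre (fewest without mutant replicate 1), 0 to 1 members and 75 to 662 genes in Mef2cAHF::Cre (fewest without labelled mutant replicate 2), 0 to 1 members and 4 to 896 genes in Tnnt2::Cre (4 without control replicate 3, 896 without mutant replicate 1), and 2 to 5 members for tissue by the column names (5 without Tnnt2::Cre control replicate 2 or 3). Between lines the ranges were 0 to 2 members and 167 to 1037 genes for Mesp1Cre minus Tnnt2::Cre, 0 to 2 members and 295 to 1031 genes for Mef2cAHF::Cre by titles minus Tnnt2::Cre (0 to 2 genes by column names), and 1225 to 2471 genes for Mesp1Cre minus Mef2cAHF::Cre by titles (39 to 637 by column names, with Cnn1 from -0.17 to 0.18). Members that did not pass with all libraries and changed sign were Mylk (-0.02 to 0.16), Myocd (-0.01 to 0.07) and Cald1 (-0.11 to 0.08) in Mesp1Cre, Myocd in Mef2cAHF::Cre (-0.01 to 0.24), Mylk in Tnnt2::Cre (-0.06 to 0.13), Smtn by stage (-0.04 to 0.10), Myh11 (-0.38 to 0.10) and Lmod1 (-0.35 to 0.48) for tissue by titles, and Tagln (-0.02 to 0.54) and Lmod1 (-0.62 to 0.20) by column names. The standard errors of the Tnnt2::Cre effect were 0.48 for Myh11 and 0.45 for Lmod1, against 0.09 to 0.24 for the other members. Their controls averaged 5.76 and 2.94 CPM, the Myh11 values of the mutants ran from 6.83 to 30.3 CPM, and the part of depth in these errors was not tested.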
